A study of Mus musculus with 1 sample.

Results

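The CXC chemokines are small secreted proteins named for a pair of cysteines near the start of the mature protein with a single residue between them. This account covers the levels of Cxcl1, Cxcl2, Cxcl3, Cxcl5, Cxcl9, Cxcl10, Cxcl12, Cxcl14 and Cxcl16 in every cell group of a mouse tumor library. These 9 genes of the 32285 in the count table were taken by name as listed family members, and none was picked by a threshold on its counts. All 9 had at least 1 UMI (a unique molecular identifier, which marks a single captured mRNA molecule).

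CXC chemokines form gradients that steer leukocytes through G protein-coupled receptors. Members with a Glu-Leu-Arg motif just before the first cysteine (Cxcl1, Cxcl2, Cxcl3 and Cxcl5 here) act on Cxcr2 and draw neutrophils, whereas Cxcl9 and Cxcl10 are induced by interferon and draw activated T and NK cells through Cxcr3. Cxcl12 acts on Cxcr4 and Ackr3, Cxcl16 is made as a transmembrane protein whose receptor is Cxcr6, and Cxcl14 is a homeostatic member with a debated receptor.

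The study asked how Atp6v0a1, a subunit of the proton pump V-ATPase, acts from within colorectal cancer cells on the immune cells around them. It used MC38, a mouse colon carcinoma line, grown under the skin of the right flank of immunocompetent young female C57BL/6J mice. The library described here is the control pool: cells of 5 tumors, labelled genotype WT and strain C57BL/6J, mixed in equal proportions before sequencing with 3′ v3.1 droplet chemistry. It was taken to be the arm in which MC38 cells carried a lentiviral non-targeting shRNA (shNTC), and the knockdown pool is not analysed here. The line is grown from culture, its tumors sit outside the colon, and the hosts keep their T, B and NK cells.

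Because the 5 tumors were pooled and their cells cannot be told apart, the library is 1 sample. There are no replicates, no comparison below has a test, and every interval and limit covers counting error only. The table held 5307 called cells, from 511 to 231902 UMIs per cell with a median of 9248. After removal of 667 cells over the mitochondrial limit and 197 likely doublets, 4443 cells with 94852329 UMIs and a median of 10431 UMIs per cell remained. Levels are given as CPM, the UMIs of a gene per 1000000 UMIs of a group, with the exact 95% Poisson interval; UMIs count molecules by a 3′ tag, so CPM is compared between genes without division by length.

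Cells were grouped without any chemokine ligand gene, and each group was named from a marker list, so each name means cells like that type and can differ from the name the study gave them. The macrophage-like cells (1219 cells, median 10366 UMIs) made up 27.4% of cells and fell into an interferon-response state (357 cells), an Spp1 state (296 cells), a proliferating state (181 cells) and other macrophages (385 cells, of which 365 form a cluster led by Fosb, Klf2 and Klf6). Tumor cells (1835 cells, median 38299 UMIs) made up 41.3% of cells but 80.5% of UMIs, with 600 in the Col3a1-high and 1235 in the Col3a1-low subgroup. The smaller groups were 245 monocytes, 112 T and NK cells, 46 dendritic cells, 34 granulocytes, 30 fibroblasts and pericytes (fibroblasts below), 24 airway epithelial cells and 17 endothelial cells. Airway genes have no known place in a tumor under the skin, and whether the airway cells came from these tumors was not tested, so their levels below may not be levels of the tumor. A further 881 cells, with 1.76% of UMIs and a median of 1123 UMIs, had no name.

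The label calls the cells epithelial, and the markers show a mixed tumor tissue. In tumor cells, 6 of the 8 genes of the MC38 list had UMIs and summed to 1028 CPM, most of it from Rhox5 (694.5 CPM), while Igf2bp1 and Krt18, the keratin of that list, had 0 UMIs. Over all kept cells the 8-gene macrophage list summed to 3537 CPM, led by C1qa (1256 CPM), and the 4-gene airway epithelium list to 23.3 CPM, led by Scgb1a1 (18.8 CPM). T and NK cells had all 7 T cell genes (6044 CPM, Cd3g highest at 1718) and all 6 NK cell genes (588.7 CPM, Klre1 highest at 286.0). Fibroblasts had all 8 genes of their list (20518 CPM, Col1a1 highest at 8794), granulocytes all 7 of theirs (55936 CPM, S100a9 highest at 30009) and monocytes all 7 of theirs (3968 CPM, Plac8 highest at 2014).

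Cxcl10 was by far the most abundant member. The 9 genes together had 134380 UMIs in kept cells, or 1417 CPM, and Cxcl10 alone gave 87903 of them (65.4%, 926.7 CPM). Cxcl9 followed with 25622 UMIs (19.1%, 270.1 CPM) and Cxcl16 with 11407 UMIs (8.49%, 120.3 CPM). Cxcl2 (4078 UMIs, 43.0 CPM), Cxcl1 (2565 UMIs, 27.04 CPM) and Cxcl14 (2547 UMIs, 26.9 CPM) formed a middle tier. Cxcl12 (149 UMIs, 1.57 CPM), Cxcl3 (74 UMIs, 0.780 CPM) and Cxcl5 (35 UMIs, 0.369 CPM) were rare, and the last of these was seen in 12 cells.

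The members differed in the cells that held most of their UMIs. Tumor cells held 89.4% of the Cxcl10 UMIs and 85.8% of the Cxcl1 UMIs, above the 80.5% of all UMIs that they hold. Macrophages, with 14.2% of all UMIs, held 82.8% of Cxcl16, 77.5% of Cxcl14, 64.9% of Cxcl2 and 57.6% of Cxcl9. Fibroblasts, with 0.519% of all UMIs, held 55.7% of Cxcl12 and 8.40% of Cxcl14. The plot of sources shows these splits beside the split of all UMIs, so that a bar that differs from the last one marks a gene enriched in some group.

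**Figure D1:**
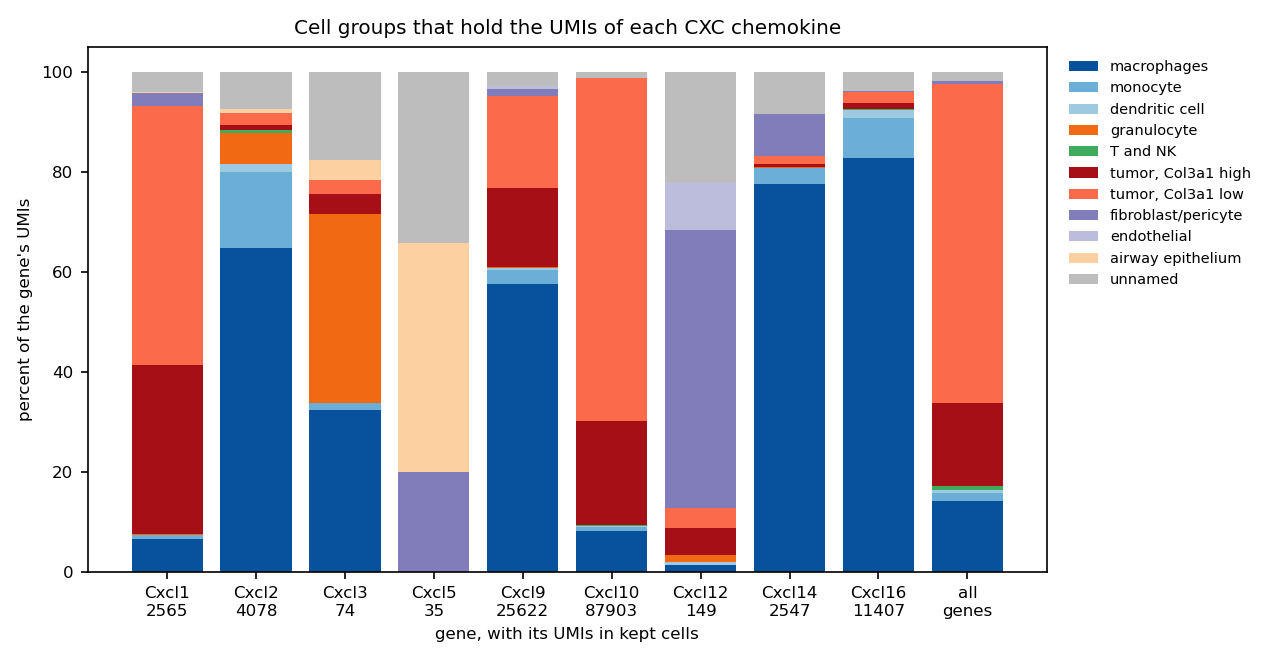
Percent of each chemokine's UMIs (y axis, 0 to 100) that lie in each cell group, for the 9 genes and for all genes together (x axis, with the UMIs of each gene in kept cells). Macrophages fill 82.8% of the Cxcl16 bar and tumor cells 89.4% of the Cxcl10 bar.

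The mix of ligands differed between groups in the same way. In tumor cells 87.1% of all member UMIs were Cxcl10 and 9.77% were Cxcl9. In interferon-response macrophages Cxcl9 gave 52.1%, Cxcl10 24.2% and Cxcl16 19.7%, whereas in Spp1 macrophages Cxcl16 led with 40.1%, followed by Cxcl2 (19.1%), Cxcl9 (18.9%) and Cxcl14 (11.7%). Monocytes had a near even mix of Cxcl16 (29.4%), Cxcl10 (24.1%), Cxcl9 (23.3%) and Cxcl2 (19.9%). Granulocytes were mostly Cxcl2 (81.6%) and endothelial cells mostly Cxcl9 (86.4%).

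**Figure D2:**
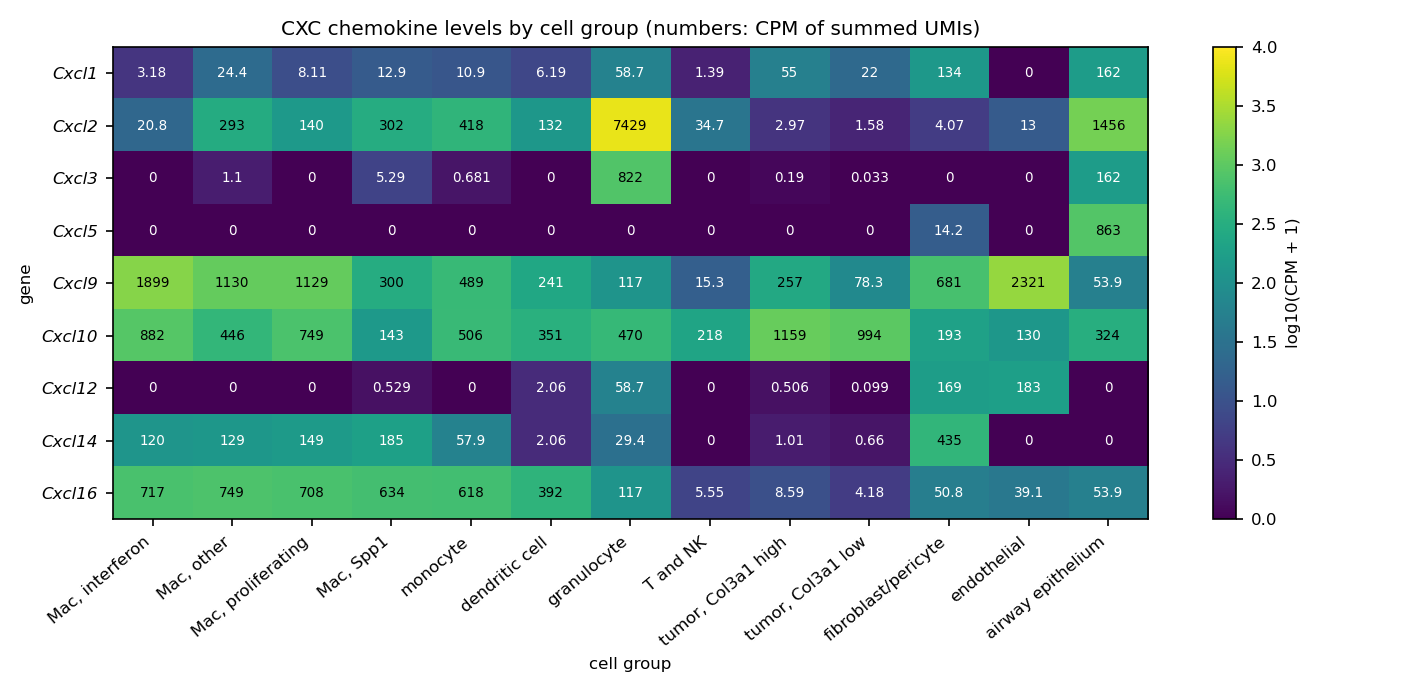
Level of each of the 9 chemokines (y axis) in each of the 13 named cell groups (x axis) as CPM on a log color scale, with the value written in each cell of the map. Cxcl10 is high in both tumor subgroups (1159 and 994.0 CPM), Cxcl9 and Cxcl16 in the macrophage states, and Cxcl12 and Cxcl14 in fibroblasts (168.8 and 435.1 CPM).

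The Glu-Leu-Arg motif that separates Cxcr2 ligands from the rest can be read in the coding sequence. The stretches below hold the 3 codons before the first Cys-X-Cys, that motif and the 3 codons after it, 27 bases each, 5′ to 3′, taken from the GENCODE transcripts of GRCm38. Capitals mark codons for Glu-Leu-Arg, present in 4 of the 9 members and absent from the other 5, and they are shown because this motif sets the order of the results.
Cxcl1: GAGCTGCGCtgtcagtgcctgcagacc
Cxcl2: GAACTGCGCtgtcaatgcctgaagacc
Cxcl3: GAGCTGCGCtgtcagtgcctgaacacc
Cxcl5: GAGCTGCGTtgtgtttgcttaaccgta
Cxcl9: aatgcacgatgctcctgcatcagcacc
Cxcl10: acggtccgctgcaactgcatccatatc
Cxcl12: agctaccgatgcccctgccggttcttc
Cxcl14: gggtccaagtgtaagtgttcccggaag
Cxcl16: gctggaagttgttcttgtgatcgtacc

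Cxcl1, Cxcl2, Cxcl3 and Cxcl5 lie close together on mouse chromosome 5, with Cxcl9 and Cxcl10 further along it. In GRCm38 (GENCODE), Cxcl5 (ENSMUSG00000029371) spans chr5:90759360-90761624, Cxcl3 (ENSMUSG00000029379) chr5:90786103-90789600, Cxcl1 (ENSMUSG00000029380) chr5:90891241-90893115 and Cxcl2 (ENSMUSG00000058427) chr5:90903871-90905938, all on the + strand. Cxcl9 (ENSMUSG00000029417, chr5:92321347-92328079) and Cxcl10 (ENSMUSG00000034855, chr5:92346638-92348889) lie on the - strand. Cxcl12 (ENSMUSG00000061353, chr6:117168535-117181367, + strand), Cxcl14 (ENSMUSG00000021508, chr13:56288643-56296551, - strand) and Cxcl16 (ENSMUSG00000018920, chr11:70453983-70459984, - strand) are each on a chromosome with no other of the 9. Of the 470 stretches of 31 bases in the last 500 bases of each member, 0 were shared with a transcript of another gene. Cxcl10 overlaps Art3 and Cxcl16 overlaps Zmynd15, in both cases on the opposite strand.

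Cxcl2, a neutrophil attractant made by activated myeloid cells, had its highest level in granulocytes, which held 6.20% of its UMIs. With all UMIs counted, Cxcl2 was higher in monocytes than in any macrophage state. Granulocytes had 7429 CPM (6541 to 8403, 253 UMIs, 84 of them in 1 cell), and airway epithelial cells had 1456 CPM (959.5 to 2118) from 27 UMIs. The airway cells also carried S100a9 (19 UMIs, 1025 CPM) and S100a8 (13 UMIs, 701.0 CPM), genes of the granulocyte list, whose part was not tested. Monocytes had 418.1 CPM (385.7 to 452.6). The study itself used Cxcl2 as a granulocyte marker, but the groups here did not use it. With each cell thinned to 1000 UMIs, the granulocyte level was 11500 CPM, over the 6 cells left, and the monocyte level was 300.4 CPM.

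Among macrophages, Cxcl2 was highest in the Spp1 and other states and lowest in the interferon-response state. Spp1 macrophages had 302.1 CPM (284.8 to 320.1) and other macrophages 292.6 CPM (275.4 to 310.7), 2 levels with overlapping intervals. Proliferating macrophages had 139.8 CPM (125.8 to 155.0) and interferon-response macrophages only 20.8 CPM (16.3 to 26.2). Dendritic cells had 132.0 CPM (64 UMIs, 29 of them in 1 cell). The remaining groups were low.

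Cxcl2 was 34.7 CPM in T and NK cells (25 UMIs, 21 of them in 1 cell), 13.04 CPM in endothelial cells (1 UMI) and 4.07 CPM in fibroblasts (2 UMIs). Tumor cells were the lowest, with 2.97 CPM in the Col3a1-high and 1.58 CPM in the Col3a1-low subgroup. In the order of levels, granulocytes, airway epithelium and monocytes each stood apart from the next group, then came Spp1 with other macrophages, and then proliferating macrophages with dendritic cells. T and NK cells, interferon-response macrophages, endothelial cells, fibroblasts and Col3a1-high tumor cells followed with intervals that overlap from each to the next, and Col3a1-low tumor cells came last.

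Few cells carried most of the Cxcl2. The 10% of macrophages with the most Cxcl2 held 91.9% of its macrophage UMIs, and in monocytes the top 10% held 94.8%. With each cell thinned to 1000 UMIs, 8.53% of macrophages had a Cxcl2 UMI (21.0% unthinned, none left out), and 11.1% of monocytes did (17.96% unthinned, 2 cells left out). For scale, the macrophage gene C1qa, which tumor cells should lack, gave a UMI in 5.65% of thinned tumor cells (65.8% unthinned, 13 left out), at a median of 38299 UMIs against 10366 in macrophages. Cxcl2, which has far fewer UMIs than C1qa in macrophages, was seen in 0.274% of thinned and 6.92% of unthinned tumor cells.

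Cxcl1, another Cxcr2 ligand, had most of its UMIs in tumor cells. Col3a1-high tumor cells had 55.0 CPM (51.4 to 58.8, 870 UMIs) and Col3a1-low tumor cells 22.0 CPM (20.8 to 23.2, 1330 UMIs). Fibroblasts had a higher level, 134.2 CPM (103.8 to 170.7), but 32 of their 66 UMIs came from 1 cell. With 20 principal components or a lower clustering resolution, which left 119 and 115 cells in the Col3a1-high subgroup, its Cxcl1 level was 213.6 and 211.8 CPM.

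Among macrophages, monocytes and dendritic cells, Cxcl1 was highest in other macrophages, near the level of Col3a1-low tumor cells. Other macrophages had 24.4 CPM (19.6 to 30.01), with 37 of 89 UMIs in 1 cell, Spp1 macrophages 12.9 CPM, proliferating macrophages 8.11 CPM and interferon-response macrophages 3.18 CPM. Monocytes had 10.9 CPM (16 UMIs), and dendritic cells 6.19 CPM (3 UMIs). Counts were too low to place the small groups: airway epithelium had 161.8 CPM from 3 UMIs (33.4 to 472.8), granulocytes 58.7 CPM from 2 UMIs (7.11 to 212.1), T and NK cells 1.39 CPM from 1 UMI, and endothelial cells 0 UMIs with a limit of 39.1 CPM. Airway epithelium, fibroblasts, granulocytes and Col3a1-high tumor cells overlap from each to the next at the top, then other macrophages and Col3a1-low tumor cells overlap, and the intervals of all the others overlap from each to the next.

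Cxcl1 was patchy within the tumor cells. Their top 10% held 81.0% of the tumor Cxcl1 UMIs. In 26.5% of Col3a1-high and 29.6% of Col3a1-low tumor cells at least 1 Cxcl1 UMI was seen, and after thinning to 1000 UMIs 4.58% (10 cells left out; 7.63% with another thinning seed) and 1.95% (3 left out). In T and NK cells, a type that should lack it, 0.893% had it unthinned, at a median of 5200.5 UMIs. After thinning it was 0 of 108 cells (4 left out), which sets no limit on the share that express it.

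Among the named groups Cxcl3 was a granulocyte and Spp1 macrophage transcript, as far as 74 UMIs can show. Unnamed cells held 13 of these UMIs (7.79 CPM). Granulocytes had 822.2 CPM (546.3 to 1188, 28 UMIs, 21 of them in 1 cell), airway epithelium 161.8 CPM (3 UMIs) and Spp1 macrophages 5.29 CPM (3.23 to 8.16, 20 UMIs). Other macrophages had 1.10 CPM (4 UMIs), monocytes 0.681 CPM (1 UMI), Col3a1-high tumor cells 0.190 CPM (3 UMIs) and Col3a1-low tumor cells 0.0330 CPM (2 UMIs). Each of the first 3 groups stands apart from the next in the order of levels, and from other macrophages down each interval overlaps the next. Interferon-response macrophages, with 0 Cxcl3 UMIs, have a limit of 0.866 CPM, and proliferating macrophages, also at 0, of 1.16 CPM. Dendritic cells, T and NK cells, fibroblasts and endothelial cells were at 0 with limits of 6.19, 4.17, 6.10 and 39.1 CPM.

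Cxcl5, known from stromal and epithelial cells, was not seen in any myeloid, lymphoid or tumor group. Airway epithelial cells had 862.8 CPM (493.2 to 1401) from 16 UMIs in 4 cells, 10 of them in 1 cell. Fibroblasts had 14.2 CPM from 7 UMIs, all in 1 cell. Zero counts limit Cxcl5 to 0.222 CPM in macrophages, 2.04 CPM in monocytes, 6.19 CPM in dendritic cells, 88.1 CPM in granulocytes, 4.17 CPM in T and NK cells, 39.1 CPM in endothelial cells and 0.0393 CPM in tumor cells.

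Promoters of 4 members carry letters of the kappaB consensus, the sequence bound by NF-kappaB factors. Promoters were matched for 7 of the 9 members, not for Cxcl5 and Cxcl16, and come from RefSeq (GRCm38.p6), 250 bases up to the RefSeq start, which for Cxcl1 and Cxcl2 lies inside the GENCODE span given above, and distances before the start refer to it. The kappaB consensus, searched on both strands, was found in 4 of the 7 (Cxcl1, Cxcl2, Cxcl3 and Cxcl10) and in 7.28% of all 32526 promoters of that length. In Cxcl1, Cxcl2 and Cxcl3 the match lies on both strands, shifted by 1 base, 71 to 61, 97 to 87 and 73 to 63 bases before the start. The promoters of Cxcl1 (chr5:90890995-90891244, + strand) and Cxcl2 (chr5:90903649-90903898, + strand), the most abundant Cxcr2 ligands, are printed with the matched bases in capitals, and a match describes the letters only.
Cxcl1: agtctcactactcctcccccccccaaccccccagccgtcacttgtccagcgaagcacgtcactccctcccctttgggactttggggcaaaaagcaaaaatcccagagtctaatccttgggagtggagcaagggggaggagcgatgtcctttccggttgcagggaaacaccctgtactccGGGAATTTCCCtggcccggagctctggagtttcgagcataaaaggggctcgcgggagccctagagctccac
Cxcl2: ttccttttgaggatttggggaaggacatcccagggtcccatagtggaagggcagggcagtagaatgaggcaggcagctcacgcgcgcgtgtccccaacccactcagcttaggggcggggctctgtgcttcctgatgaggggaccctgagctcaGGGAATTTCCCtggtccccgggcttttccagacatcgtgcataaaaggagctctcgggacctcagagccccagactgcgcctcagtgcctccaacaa

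Cxcl10 was found in every named group, with tumor cells at the top. This ligand of Cxcr3 is induced by type I and type II interferon. Col3a1-high tumor cells had 1159 CPM (1142 to 1176, 18341 UMIs) and Col3a1-low tumor cells 994.0 CPM (986.1 to 1002, 60215 UMIs). Of the myeloid groups, interferon-response macrophages came closest with 882.3 CPM (851.2 to 914.1), followed by proliferating macrophages with 748.7 CPM (715.8 to 782.8). With 20 principal components, which left 103 cells in the interferon-response state, its Cxcl10 level was 2753 CPM.

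Monocytes had 506.0 CPM of Cxcl10 (470.3 to 543.7), granulocytes 469.8 CPM (16 UMIs) and other macrophages 445.8 CPM (424.4 to 468.0). Dendritic cells had 350.7 CPM (300.0 to 407.6), airway epithelium 323.6 CPM (6 UMIs), T and NK cells 218.0 CPM (185.2 to 254.9) and fibroblasts 193.2 CPM (156.3 to 236.1). The lowest levels were those of Spp1 macrophages, 143.0 CPM (131.2 to 155.5), and endothelial cells, 130.4 CPM from 10 UMIs. Both tumor subgroups, interferon-response macrophages and proliferating macrophages each stand apart from the next group. From monocytes through granulocytes to other macrophages each interval overlaps the next, as from dendritic cells through fibroblasts, and Spp1 macrophages overlap endothelial cells.

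Most tumor cells had Cxcl10 molecules, in uneven amounts. At least 1 UMI was seen in 89.3% of Col3a1-high and 94.3% of Col3a1-low tumor cells, and in 48.0% and 41.6% after thinning (10 and 3 cells left out). The tumor gene Rhox5, which macrophages should lack, was seen in 5.25% of thinned macrophages (31.6% unthinned, median 10366 UMIs) and 47.9% of thinned tumor cells. The 10% of tumor cells with the most Cxcl10 held 54.8% of its tumor UMIs, and 1 cell held 1000 of them. In interferon-response macrophages 30.8% of thinned cells had Cxcl10 (71.4% unthinned) and in Spp1 macrophages 9.12% (62.2% unthinned), where Rhox5 was seen in 3.64% and 5.74% of thinned cells.

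Cxcl9, the other Cxcr3 ligand and a gene induced chiefly by interferon gamma, had 57.6% of its UMIs in macrophages and 34.4% in tumor cells. Interferon-response macrophages had 1899 CPM (1853 to 1946, 6576 UMIs), other macrophages 1129.7 CPM (1096 to 1165) and proliferating macrophages 1129.1 CPM (1089 to 1171), the last 2 overlapping. Spp1 macrophages had 299.95 CPM (282.8 to 317.9), and under other clusterings between 158.2 and 490.6 CPM. Endothelial cells had the highest value, 2321 CPM, but 130 of their 178 UMIs came from 1 of 17 cells. Within other macrophages, a cluster of 20 cells led by Retnla, Lyve1 and Folr2 had 0 Cxcl9 UMIs.

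Cxcl9 was also seen in each group outside the macrophages. Fibroblasts had 681.1 CPM (610.1 to 758.1, 335 UMIs, 89 in 1 cell), monocytes 489.0 CPM (453.8 to 526.1) and dendritic cells 241.4 CPM (199.6 to 289.3). Col3a1-high tumor cells had 256.7 CPM (248.8 to 264.7) and Col3a1-low tumor cells 78.3 CPM (76.1 to 80.6). T and NK cells were the lowest with 15.3 CPM (7.62 to 27.3), and granulocytes (117.4 CPM) and airway epithelium (53.9 CPM) rest on 4 and 1 UMIs. Endothelial cells, interferon-response macrophages, fibroblasts, monocytes and Spp1 macrophages each stand apart from the next group, with other and proliferating macrophages overlapping between them, and from Col3a1-high tumor cells down each interval overlaps the next.

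Among macrophages, cells with Cxcl9 were most common in the interferon-response state and least common in the Spp1 state. After thinning it was 57.4% in interferon-response macrophages (82.1% unthinned), 43.6% in proliferating macrophages (74.6%), 37.1% in other macrophages (67.3%) and 13.9% in Spp1 macrophages (44.3%), with no cell left out. Monocytes had 19.8% (44.9% unthinned, 2 left out). In Col3a1-high tumor cells it was 15.6% (52.8% unthinned, 10 left out) beside 10.0% for C1qa in the same cells, and in Col3a1-low tumor cells 6.98% (44.5% unthinned, 3 left out) beside 3.57% for C1qa. T and NK cells had Cxcl9 in 1.85% of thinned cells (8.04% unthinned, 4 left out), beside 14.8% for C1qa in the same cells (43.8% unthinned, median 5200.5 UMIs).

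**Figure D3:**
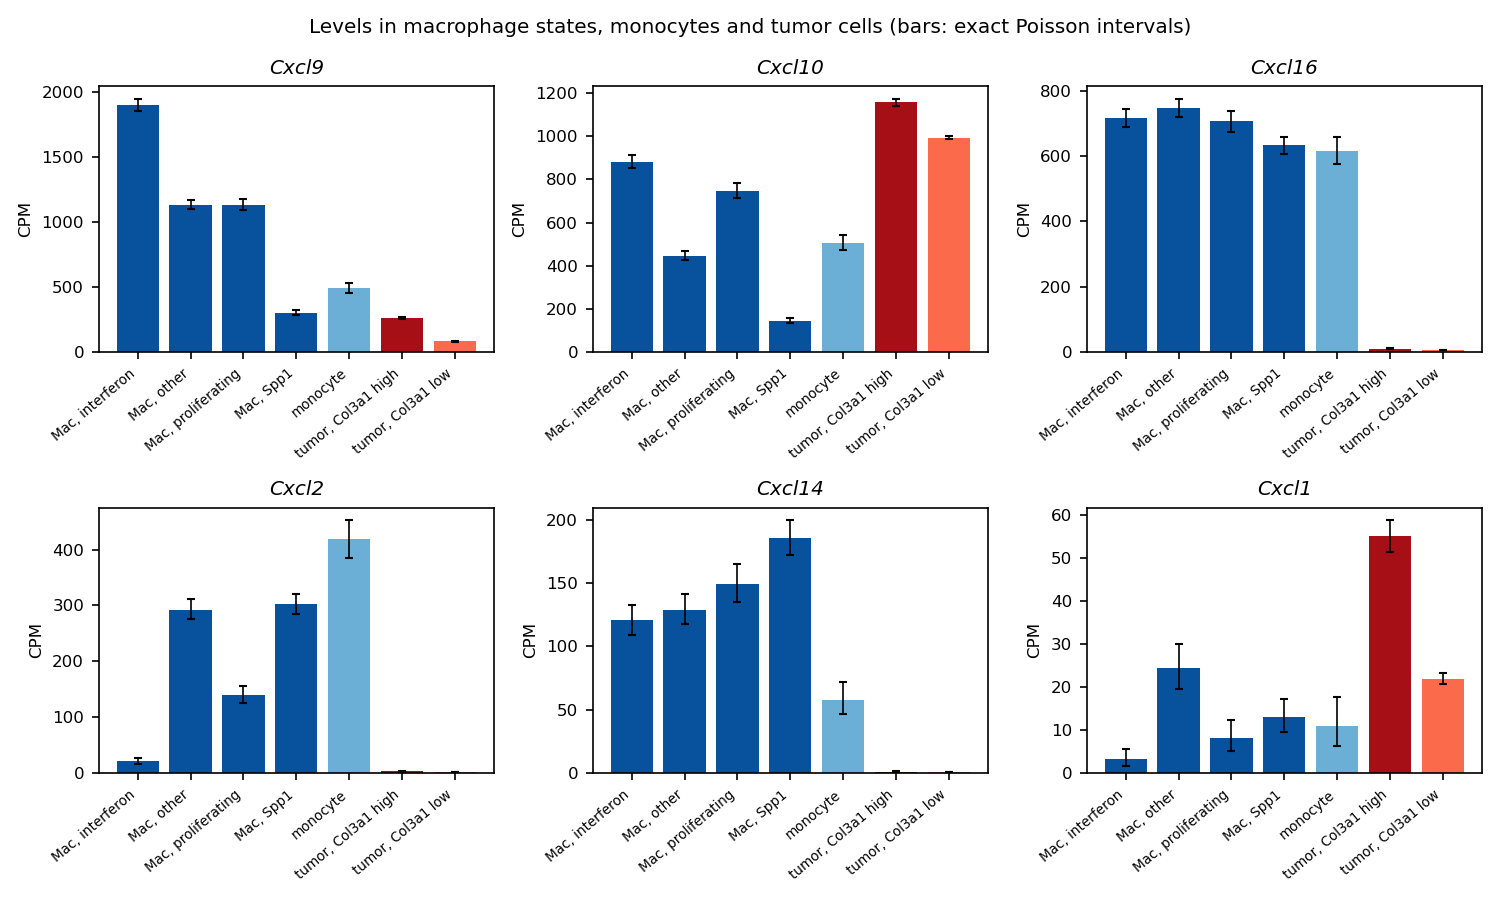
Levels of 6 chemokines (CPM, y axis from 0, a scale for each gene) in the macrophage states, monocytes and tumor subgroups (x axis), with exact 95% Poisson intervals as error bars. Cxcl9 falls from 1899 CPM in interferon-response macrophages to 299.95 CPM in Spp1 macrophages, while Cxcl16 lies between 617.7 and 749.1 CPM in all myeloid groups shown.

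The Cxcr3 ligands Cxcl9 and Cxcl10 were seen together in cells of the interferon-response state about as often as the product of their shares. Of 357 such cells thinned to 1000 UMIs, 63 had both (17.6%, exact Clopper-Pearson 95% interval 13.8 to 22.0), and the product of the shares is 17.7%. With another thinning seed it was 19.0% (15.1 to 23.5) beside 16.3%, at 2000 UMIs 27.2% (22.6 to 32.2) beside 26.0%, and unthinned 59.4% had both. Over all macrophages the value was 10.0% (8.38 to 11.8) beside a product of 8.31%, and in Col3a1-high tumor cells 9.32% (7.10 to 11.96) beside 7.48%. In Col3a1-low tumor cells it was 3.57% (2.61 to 4.77) beside 2.91%, and in monocytes 5.35% (2.88 to 8.97) beside 5.61%. In all macrophages the product lay under the interval with either thinning seed (11.4%, 9.67 to 13.3, beside 8.66% with the other seed). In Col3a1-high tumor cells it did so with the other seed but not the first (10.0%, 7.70 to 12.7, beside 6.90%). The value over all macrophages joins states with different levels of each gene.

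Cxcl2 and Cxcl9 were seen together in few macrophages. Both were seen in 26 of 1219 thinned macrophages (2.13%, 1.40 to 3.11) beside a product of 3.28%. Of macrophages with Cxcl2, 25.0% had Cxcl9, against 39.6% of those without it. With another thinning seed 2.38% (1.599 to 3.40) had both beside a product of 3.26%, unthinned 12.9% (11.05 to 14.9) beside 14.1%, and within the interferon-response state 3 of 5 thinned cells with Cxcl2 had Cxcl9 against 57.4% of those without. The pooled value joins states with different levels of both genes. For the tumor ligands Cxcl1 and Cxcl10, 3.05% of thinned Col3a1-high tumor cells (1.82 to 4.78) had both beside a product of 2.20%, and 5.59% (3.88 to 7.77) beside 3.70% with another thinning seed. Cells of a group share their library and differ in depth, so these values are descriptions.

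Letters of interferon response elements lie upstream of both genes. The core GAAANNGAA, searched on both strands, was found in Cxcl9, Cxcl10 and Cxcl14, 3 of the 7 matched promoters, and in 7.15% of all promoters. The sequence TTCNNNGAA was found in Cxcl14 alone, 191 to 183 bases before the start, and in 7.04% of all promoters, and no match of a motif overlaps a match of another motif in these promoters. Cxcl9 (chr5:92328080-92328329, - strand) has GAAANNGAA 175 to 167 bases before the start. Cxcl10 (chr5:92348890-92349139, - strand) has it at 213 to 205, and kappaB matches at 159 to 150 and, on both strands shifted by 1 base, at 104 to 94. Both are printed from RefSeq (GRCm38.p6) because both ligands were higher in interferon-response than in Spp1 macrophages, with every match in capitals.
Cxcl9: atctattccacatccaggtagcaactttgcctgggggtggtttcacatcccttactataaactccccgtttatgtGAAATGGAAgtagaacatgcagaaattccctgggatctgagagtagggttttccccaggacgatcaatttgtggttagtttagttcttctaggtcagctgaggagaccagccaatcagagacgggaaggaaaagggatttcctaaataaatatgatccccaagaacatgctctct
Cxcl10: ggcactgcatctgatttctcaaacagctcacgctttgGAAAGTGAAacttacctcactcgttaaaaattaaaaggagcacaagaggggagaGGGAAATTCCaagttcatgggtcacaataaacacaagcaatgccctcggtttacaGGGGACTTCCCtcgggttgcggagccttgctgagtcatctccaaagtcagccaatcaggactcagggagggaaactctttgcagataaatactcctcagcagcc

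Cxcl12, the stromal ligand that retains Cxcr4-bearing cells, was found in fibroblasts and endothelial cells. Fibroblasts had 168.8 CPM (134.4 to 209.2) from 83 UMIs in 12 cells, and 121.9 CPM without the cell that held 25 of them. Endothelial cells had 182.6 CPM (99.8 to 306.3) from 14 UMIs, 8 of them in 1 cell. With a higher resolution or with 10 nearest neighbors, the fibroblast level was 75.2 and 93.8 CPM.

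In each other named group the Cxcl12 count was 8 or fewer, while unnamed cells held 33 UMIs (19.8 CPM). Granulocytes had 58.7 CPM (2 UMIs), dendritic cells 2.06 CPM (1 UMI), Spp1 macrophages 0.529 CPM (2 UMIs), Col3a1-high tumor cells 0.506 CPM (8 UMIs, 6 in 1 cell) and Col3a1-low tumor cells 0.0990 CPM (6 UMIs). Interferon-response, other and proliferating macrophages were at 0 with limits of 0.866, 0.822 and 1.16 CPM. Monocytes, T and NK cells and airway epithelium, also at 0, have limits of 2.04, 4.17 and 161.8 CPM. The intervals overlap from each group to the next except between Col3a1-high and Col3a1-low tumor cells.

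A Cxcl12 UMI was seen in 12 of 30 fibroblasts and in 3 of 30 after thinning (10.0%, 2.11 to 26.5), with none left out and a median of 10819.5 UMIs. In macrophages, at a median of 10366 UMIs, it was seen in 0.164% of cells and in 0 of 1219 thinned cells. The share of free RNA in the fibroblast value was not tested.

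Cxcl14 was a fibroblast and macrophage ligand, and all macrophage states had it. Fibroblasts had 435.1 CPM (378.8 to 497.5, 214 UMIs, 66 in 1 cell), and under other settings between 191.6 (higher resolution) and 733.3 CPM (thinned cells). Spp1 macrophages had 185.3 CPM (171.8 to 199.5), proliferating macrophages 149.1 CPM (134.6 to 164.7), other macrophages 128.8 CPM (117.4 to 141.0) and interferon-response macrophages 120.4 CPM (109.1 to 132.6). Monocytes had less, 57.9 CPM (46.2 to 71.6).

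In the other named groups Cxcl14 rested on few UMIs, while unnamed cells had 129.4 CPM (216 UMIs). Granulocytes had 29.4 CPM and dendritic cells 2.06 CPM, each from 1 UMI. Col3a1-high tumor cells had 1.011 CPM (16 UMIs) and Col3a1-low tumor cells 0.660 CPM (40 UMIs). T and NK cells, with 0 UMIs, have a limit of 4.17 CPM, endothelial cells of 39.1 CPM and airway epithelium of 161.8 CPM. Fibroblasts and then Spp1 macrophages each stand apart from the next group, the other 3 macrophage states overlap from each to the next, and from monocytes down each interval overlaps the next.

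Cxcl14 was spread over many macrophages. After thinning, 12.96% of macrophages had a UMI (50.4% unthinned, none left out), with 18.9% in the Spp1 state (58.4%) and 9.80% in the interferon-response state (45.9%). In fibroblasts it was 23.3% (43.3% unthinned, none left out). In tumor cells it was 0.165% (2.83% unthinned, 13 left out).

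Cxcl16, the transmembrane ligand of Cxcr6, was the most even of the macrophage ligands. Other macrophages had 749.1 CPM (721.3 to 777.8), interferon-response macrophages 717.1 CPM (689.1 to 745.8) and proliferating macrophages 707.8 CPM (675.8 to 741.0), and these intervals overlap from each to the next. Spp1 macrophages had 634.0 CPM (608.9 to 659.9) and monocytes 617.7 CPM (578.1 to 659.2), which overlap each other. Dendritic cells stood apart with 392.0 CPM (338.2 to 451.9). The highest and lowest of the 4 macrophage states differ by far less here than for Cxcl9.

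Lymphoid, stromal and tumor cells had little Cxcl16. Fibroblasts had 50.8 CPM (32.9 to 75.0, 25 UMIs), and T and NK cells 5.55 CPM (4 UMIs). Col3a1-high tumor cells had 8.59 CPM (7.21 to 10.2) and Col3a1-low tumor cells 4.18 CPM (3.68 to 4.72). Granulocytes (117.4 CPM), endothelial cells (39.1 CPM) and airway epithelium (53.9 CPM) rest on 4, 3 and 1 UMIs, and from granulocytes down each interval overlaps the next.

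Nearly every macrophage had Cxcl16 molecules. At least 1 UMI was seen in 96.3% of macrophages and in 49.1% after thinning, with none left out. Monocytes had 42.0% thinned (76.7% unthinned, 2 left out) and dendritic cells 43.5% (80.4% unthinned). The top 10% of macrophages held 25.5% of their Cxcl16 UMIs, against 91.9% for Cxcl2. In tumor cells the share was 0.768% thinned (17.8% unthinned, 13 left out), and in T and NK cells 0 of 108 thinned cells (3.57% unthinned, 4 left out).

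RNA set free from broken cells can put UMIs into any droplet. Genes of a known source, counted in other groups, give the level of off-type UMIs, whose origin was not tested. C1qa, C1qb and C1qc in tumor cells reached 0.437%, 0.432% and 0.378% of their macrophage CPM, and in T and NK cells 1.16%, 0.920% and 0.970%. Cxcl14 in tumor cells was near these values at 0.501% (0.377 to 0.653), while Cxcl16 at 0.727% (0.655 to 0.804) and Cxcl2 at 0.954% (0.801 to 1.13) were above them. In T and NK cells Cxcl16 was at 0.793% (0.216 to 2.03) and Cxcl2 at 17.7% (11.4 to 26.2), with 21 of its 25 UMIs in 1 cell. Cxcl9 in T and NK cells was at 1.40% (0.697 to 2.50) of the macrophage level. In tumor cells Cxcl9 stood at 10.5% (10.3 to 10.8), with 23.5% in the Col3a1-high and 7.16% in the Col3a1-low subgroup, well above the C1q genes.

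Read from the tumor side, Rhox5 and Shisal2b in macrophages reached 5.33% and 6.11% of their tumor CPM. Cxcl10 in macrophages stood at 51.7% of the tumor level, from 13.9% in the Spp1 state to 85.8% in the interferon-response state. Monocytes had Rhox5 at 8.43% and Shisal2b at 12.9%, and Cxcl10 at 49.2%. In T and NK cells Rhox5 was at 6.80%, Shisal2b at 10.9% and Cxcl10 at 21.2% (18.01 to 24.8), with 45 of their 157 Cxcl10 UMIs in 1 cell. By share of thinned cells, Cxcl10 in T and NK cells (14.8%, 54.5% unthinned, 4 left out) equalled C1qa there and lay above Rhox5 (4.63%, 26.8% unthinned). Whether T and NK cells make Cxcl10 was not tested. The plot of off-type levels sets these percentages side by side.

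**Figure D4:**
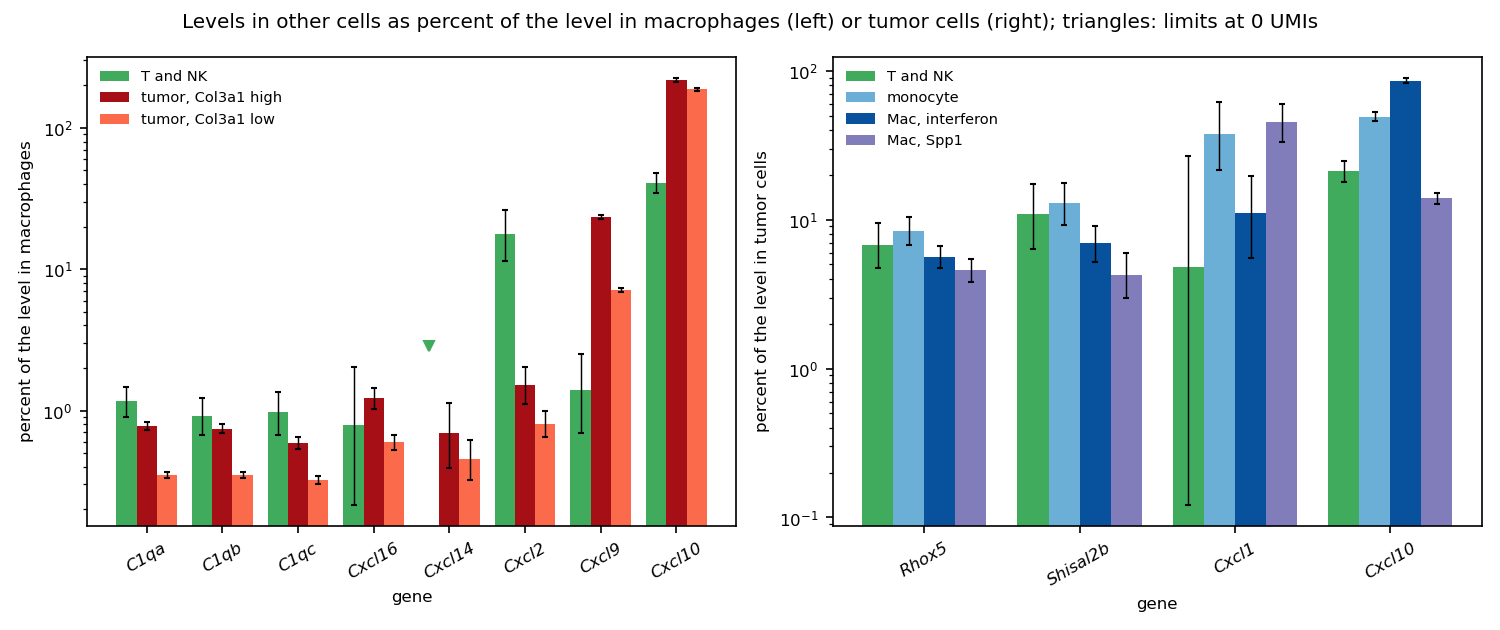
Level of each gene (x axis) as percent (y axis, log scale) of its level in macrophages (left) or in tumor cells (right), with 95% intervals as error bars and a triangle at the limit of a gene with 0 UMIs. In Col3a1-low tumor cells C1qa, C1qb and C1qc lie at 0.348%, 0.350% and 0.323%, and Cxcl9 at 7.16%.

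Among the members, interferon-response macrophages had more of the Cxcr3 ligands and less of the Cxcr2 ligands than Spp1 macrophages. Cxcl9 was 6.33-fold (5.94 to 6.75) and Cxcl10 6.17-fold (5.63 to 6.77) higher in the interferon-response state. Cxcl2 was 14.5-fold lower (11.4 to 18.7), Cxcl1 4.08-fold lower (2.09 to 8.69) and Cxcl3, with 0 UMIs against 20, at least 6.10-fold lower by a floor of 3 counts. Cxcl14 stood at 0.650 (0.574 to 0.735) and Cxcl16 at 1.13 (1.07 to 1.20) times the Spp1 level.

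A gene was counted as higher or lower past 2-fold, among genes with at least 20 UMIs over both groups. Of 7 members with that minimum 5 were counted, 2 higher and 3 lower. Over all 9873 genes with that minimum the share was 9.92%. Cxcl3 is among the lower and reached the minimum only through its 20 Spp1 UMIs. Cxcl1, also among the lower, reached it only through its 49 Spp1 UMIs, 19 of them in the same cell, against 11 in the interferon-response state. With a minimum of 50 UMIs, 4 members were counted. Cxcl9 and Cxcl10 are themselves interferon-induced and the state was named by such genes, so their being higher describes the state and is no finding. No interferon-response state was named with at least 500 genes or with another seed, so those settings gave no comparison. The direction of Cxcl9, Cxcl10 and Cxcl2 held under all group alternatives that gave a value, while the size did not. The Cxcl9 fold ran from 3.72 (mitochondrial limit of 10%) to 12.5 (20 principal components). The Cxcl10 fold ran from 2.97 (lower resolution) to 15.9 (no mitochondrial limit). With doublets kept, Cxcl2 was at 0.739 of the Spp1 level and no longer counted.

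Other interferon-induced genes are higher in this state by the way it was named, so their count describes the state and is no finding. Of the 13 list genes with the minimum, 11 were higher and 1, Nos2 (0.192), lower, with a median of 2.76 against 1.11 over all genes. Ciita (6.27-fold), Gbp5 (5.51-fold), Socs1 (3.90-fold) and Iigp1 (3.45-fold) were among them, and Cd274, the gene of PD-L1, stood at 0.532. The list shares Gbp2, Gbp5 and Iigp1 with the list that named the state. Of the 12 NF-kappaB list genes 11 had the minimum. None of these was higher and 1, Ptgs2 (0.219), was lower, with a median of 1.02. That is 9.09% of them beside 9.92% of all genes.

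Monocytes, the precursors of many tumor macrophages, had more Cxcl2 and less Cxcl9 and Cxcl14 than macrophages. Cxcl2 was 2.13-fold higher (1.95 to 2.33), Cxcl9 2.24-fold lower (2.08 to 2.42) and Cxcl14 2.53-fold lower (2.03 to 3.18). Cxcl10 (0.953, 0.882 to 1.03), Cxcl16 (0.882, 0.823 to 0.944) and Cxcl1 (0.864, 0.483 to 1.44) were close to the macrophage level. Cxcl3, at 0.383 of that level, had 1 UMI against 24 and an interval from 0.00931 to 2.35. The macrophage gene C1qa was also lower, at 3230 CPM in monocytes and 7997 CPM in macrophages. Its relation to these folds was not tested.

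By the 2-fold rule 4 of 7 members with the minimum were counted, 1 higher and 3 lower, against 14.2% of all 11152 genes. Cxcl3 is among the 3 lower, reached the minimum only through macrophages and has an interval that spans 1. With thinned cells 2 members were counted. Both the Cxcl2 and the Cxcl9 counts sit near the threshold. The Cxcl2 fold was 1.599 with thinned cells and 1.72 with 3000 variable genes, and the Cxcl9 ratio 0.643 with a mitochondrial limit of 10%, none of which is counted. In all, Cxcl2 was not counted in 6 and Cxcl9 in 8 of 10 alternatives, while Cxcl14 was counted under every alternative that gave a value (0.318 to 0.482). The interferon list stood at a median of 0.979 beside 0.923 over all genes, with 0 higher and 1 lower (Nos2, 0.349) of 13 (7.69% beside 14.2% of all genes). The NF-kappaB list had 1 higher (Il1b, 3.29-fold) and 1 lower (Tnf, 0.4005) of 11 with the minimum (18.2%).

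Col3a1-high tumor cells had more of several chemokines than Col3a1-low tumor cells, with Cxcl10 nearly equal. Cxcl9 was 3.28-fold (3.14 to 3.42), Cxcl1 2.50-fold (2.30 to 2.73) and Cxcl16 2.06-fold (1.66 to 2.54) higher. Cxcl2 was at 1.87 (1.29 to 2.68), Cxcl14 at 1.53 (0.8004 to 2.80) and Cxcl10 at 1.17 (1.15 to 1.19). That is 3 of 6 members with the minimum, all higher, against 14.3% of all 12883 genes, and 5 members were counted with a minimum of 5 UMIs and 2 with thinned cells.

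Macrophage genes were also higher in these cells. C1qa had 62.1 CPM in the Col3a1-high and 27.9 CPM in the Col3a1-low subgroup, and the 8-gene macrophage list summed to 161.7 and 79.2 CPM. The part of those UMIs in the chemokine folds was not tested. The Cxcl9 direction turned where the Col3a1-high subgroup was smaller, with 0.774 at a lower resolution (115 cells) and 0.784 with 20 principal components (119 cells). There Cxcl1 was 7.74-fold and 7.80-fold higher and Cxcl16 3.51-fold and 4.13-fold, and without a mitochondrial limit Cxcl1 (1.56) and Cxcl16 (1.79) were not counted. Of 12 alternatives, 4 ended the count of Cxcl1 and 5 that of Cxcl16.

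Among other genes of the same pathways, 4 of 14 interferon list genes were higher in Col3a1-high tumor cells (Nos2 4.06-fold, Ciita 2.55-fold, Gbp5 2.48-fold and Gbp7 2.003-fold) and Ido1 was lower (0.459), with a median of 1.78 against 1.15 over all genes. That is 35.7% of the list past 2-fold beside 14.3% of all genes, of which 10.9% were higher. Of 10 NF-kappaB list genes with the minimum, 4 were higher and none lower, with a median of 1.90. They were Tnf (4.08-fold), Nfkbiz (2.68-fold), Icam1 (2.64-fold) and Ptgs2 (2.005-fold).

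Tumor cells and host fibroblasts divided the members between them: Cxcl10 was higher in tumor cells and the stromal ligands were higher in fibroblasts. Cxcl10 was 5.32-fold higher (4.35 to 6.58). Cxcl12 was 921-fold lower (519.2 to 1757) and Cxcl14 594-fold lower (440.5 to 811.7). Cxcl16 was 9.98-fold (6.38 to 14.96), Cxcl9 5.91-fold (5.28 to 6.59) and Cxcl1 4.66-fold (3.59 to 5.95) lower.

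The remaining values rest on few fibroblast UMIs. Cxcl2 was 2.17-fold lower with 2 fibroblast UMIs and an interval from 0.261 to 7.99, and Cxcl5, below the minimum with 0 against 7 UMIs, was at least 362-fold lower. By the rule 7 of 7 members with the minimum were counted, 1 higher and 6 lower, against 31.5% of all 13062 genes. Of the 6 lower, Cxcl12 reached the minimum only through its 83 fibroblast UMIs, and the Cxcl2 interval spans 1. With thinned cells 4 members were counted. The fibroblast group holds 30 cells, and with a higher resolution (153 cells) the Cxcl10 fold was 1.45 and no longer counted (1.48 with 10 nearest neighbors), while the tumor level of Cxcl12 was 0.00245 and that of Cxcl14 0.00385 of the fibroblast level, instead of 0.00109 and 0.00168. Fibroblasts also carried macrophage genes (459.5 CPM over 8 genes, C1qa highest at 181.0) and MC38 genes (176.9 CPM, Rhox5 highest at 138.3), whose part was not tested.

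The interferon list had 4 of 14 genes higher in tumor cells (Ido1 8.53-fold, Gbp2 3.47-fold, Cd274 2.47-fold and Irf1 2.08-fold) and 3 lower (Ciita, Iigp1 and Gbp5, the last 2 at 0.413 and 0.468), with a median of 1.57 against 0.867 over all genes and 7 of 14 past 2-fold beside 31.5% of all genes. The NF-kappaB list had 0 higher and 2 lower of 10 with the minimum (Icam1 0.140, Nfkbiz 0.345) and a median of 0.727. The plot of folds places the members of all 4 comparisons on a common axis.

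**Figure D5:**
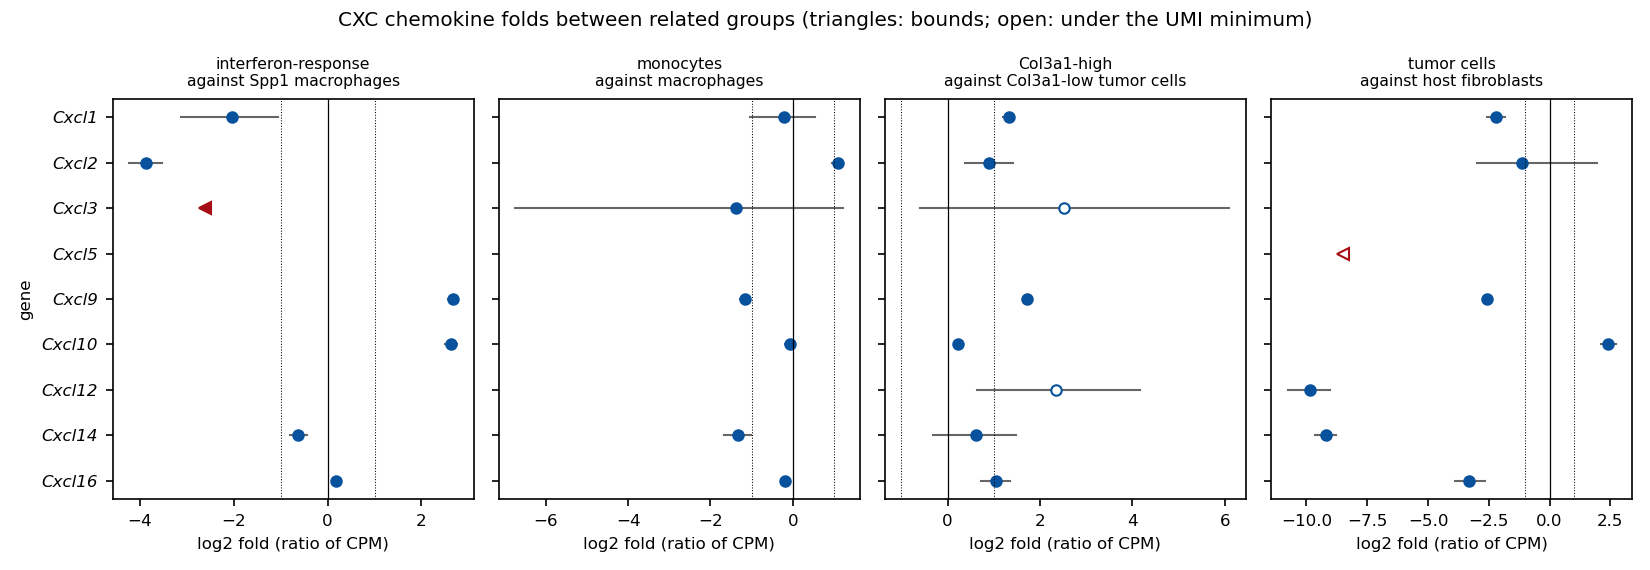
Fold of each chemokine in the 4 comparisons (x axis, log2 of the ratio of CPM, with 95% intervals as bars), with dotted lines at 2-fold in both directions, triangles for bounds and open marks for genes under the UMI minimum. Cxcl9 (6.33) and Cxcl10 (6.17) lie to the right and Cxcl2 to the left in interferon-response against Spp1 macrophages.

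The genes most like each member over the 8 groups of at least 50 cells were found by Pearson's r of log2(CPM + 10) among 4169 genes. Cxcl16 tracked Csf1r (0.9995), Cybb (0.998) and P2ry6 (0.998), and Cxcl14 tracked Lmo2 (0.994), Rap2b (0.993) and Zmynd15 (0.993), the gene that overlaps Cxcl16. Cxcl9 was most like Arhgef2 (0.987), Eng (0.985) and Sbno2 (0.979), and Cxcl10 most like Rpn1 (0.964), Parp12 (0.940) and mt-Nd3 (0.939). For Cxcl2 they were Cdkn1a (0.976), Tmod3 (0.953) and Snx18 (0.949), and for Cxcl1 Acadvl (0.950), Dnajb1 (0.939) and Ecm1 (0.930). The points are groups of 1 library, so these are descriptions.

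For the rare members the measure rests on few molecules. Cxcl3, with 30 UMIs in these groups, was most like Aldoa (0.935), Mmp12 (0.926) and Atp6v1c1 (0.904). Cxcl12, with 16 UMIs, was most like Ero1l (0.942), Bnip3 (0.925) and Fabp4 (0.917), and Cxcl5 had 0 UMIs there. Among members, Cxcl14 and Cxcl16 were the most alike pair (r = 0.98 over 8 groups), then Cxcl9 and Cxcl16 (0.84), whereas the Cxcr3 ligands Cxcl9 and Cxcl10 had 0.32 and Cxcl3 and Cxcl10 -0.72.

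Other CXC ligands were found in macrophages, airway epithelium and unnamed cells. Pf4, a platelet chemokine also made by macrophages, had 1138.5 CPM in Spp1 macrophages and was 4.74-fold lower (4.403 to 5.12) in the interferon-response state. Cxcl15, a lung epithelial chemokine, had 1240.3 CPM in airway epithelium (23 of its 28 UMIs). Cxcl13 had 93 of its 118 UMIs in unnamed cells, Cxcl17 had 8 UMIs in airway epithelium, Ppbp had 16 UMIs in all, and Cxcl11 is not in the count table.

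The receptors Cxcr3 and Cxcr6 had their highest levels in T and NK cells. Cxcr3 was at 40.3 CPM there (26.97 to 57.8), which is 29 of its 104 UMIs, while macrophages held 55, with 8.66 CPM in interferon-response macrophages (30 UMIs) and 10.3 CPM in dendritic cells (5 UMIs). Cxcr6, the receptor of Cxcl16, had 326.3 CPM (285.9 to 370.8) in T and NK cells, which held 235 of its 261 UMIs. The Cxcl9 and Cxcl10 inducer interferon gamma (Ifng) had 745.6 CPM in T and NK cells and 0 UMIs in macrophages.

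Receptors of the Cxcr2 and Cxcr4 ligands had their highest levels in myeloid and stromal groups. Cxcr2 had 469.8 CPM (268.5 to 762.9) in granulocytes from 16 UMIs, and 0.196 CPM in tumor cells from 15 of its 32 UMIs. Cxcr4 had 202.2 CPM in other macrophages, 137.6 CPM in monocytes, 124.5 CPM in Spp1 macrophages and 90.7 CPM in interferon-response macrophages, against 13.9 CPM in T and NK cells and 1.47 CPM in tumor cells. Ackr3, a scavenger of Cxcl12, had 260.8 CPM in endothelial cells (20 UMIs) and 183.0 CPM in fibroblasts (90 UMIs), the groups with Cxcl12 itself, and 25.2 and 13.8 CPM in Col3a1-high and Col3a1-low tumor cells, which held 1235 of its 1396 UMIs. Cxcr1, Cxcr5 and Ackr1 had 1, 3 and 12 UMIs. In the 4 comparisons 2, 3, 2 and 2 of the 8 receptors had 20 UMIs. Cxcr3 was past 2-fold in interferon-response macrophages (8.20-fold higher, 2.89 to 32.0), with 30 UMIs against 4 in Spp1 macrophages. It reached the minimum only through the interferon-response state. Cxcr4 (5.55-fold, 1.49 to 14.6) and Ackr3 (11.3-fold, 9.04 to 14.0) were lower in tumor cells than in fibroblasts, and no other receptor passed. Of all genes, 9.92%, 14.2%, 14.3% and 31.5% were past 2-fold in these comparisons.

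Enzymes that cut CXC chemokines were split between the compartments. Adam10 and Adam17, which shed Cxcl16 from the cell surface, had 85.3 and 98.7 CPM in macrophages, the main source of Cxcl16, and 19.7 and 55.4 CPM in tumor cells. Dpp4, which trims the ends of Cxcl9, Cxcl10 and Cxcl12, had 79.3 CPM in fibroblasts (39 UMIs), 57.8 CPM in dendritic cells (28 UMIs) and 22.2 CPM in T and NK cells (16 UMIs). Mmp9 had 499.2 CPM in granulocytes (17 UMIs) and 93.4 CPM in tumor cells against 10.7 CPM in macrophages. Of the 3 enzymes with the minimum (not Dpp4), none passed 2-fold between the macrophage states or between the tumor subgroups. Dpp4 was 10.0-fold higher (4.05 to 25.1) in monocytes than in macrophages from 12 and 11 UMIs. Adam10 (2.28-fold, with 22 fibroblast UMIs) and Dpp4 (1212-fold, with 5 tumor and 39 fibroblast UMIs) were lower in tumor cells than in fibroblasts. There Dpp4 reached the minimum only through fibroblasts.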

How the data were processed

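The deposited values are UMI counts of 1 droplet library, which the authors made with Cell Ranger (5.0.1 per the file headers, V3 in the paper) on GRCm38 (mm10). Cells needed 200 genes or more and no more than 20% of UMIs from mitochondrial genes, and the likeliest doublets (0.8% per 1000 cells, scored against 2 simulated doublets per cell) were removed. Counts were scaled to 10000 per cell and logged. The 2000 genes of highest standardized variance, without any Cxcl or Ccl gene, Pf4 or Ppbp, gave 30 principal components, a graph of 20 nearest neighbors and Leiden clusters (resolution 0.5). Myeloid and T and NK cells were clustered again (1000 genes, 15 components, resolution 0.5 and 1). A cluster was named from marker lists with at least 3 raised genes (2-fold, at least 5 UMIs), first those with a gene among its 10 leading genes and then by share of genes raised. Monocyte clusters and shallow clusters needed such a leading gene, dendritic clusters a larger share than the monocyte list, and a leading T or NK gene was enough within the T and NK cells. Tumor clusters were instead named by Rhox5 and Shisal2b at 5 or more times, and Xist at no more than 0.1 times, the macrophage level. Other macrophages are deeper myeloid clusters that fit no other name. The variable gene measure, the naming rule, the second clustering of mixed cells and the split of tumor cells by Col3a1, Dcn and Postn were set after the data were seen.

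UMIs were summed over each group to CPM with exact Poisson intervals, and folds are ratios of CPM with exact intervals. A fold against 0 UMIs is a bound from a floor of 3 counts, and a bound on the wrong side of 1 was not counted. Folds were counted past 2-fold among genes with at least 20 UMIs over both groups. Shares of cells have exact Clopper-Pearson intervals, and cells under 1000 UMIs were left out of thinned shares. Likeness used genes with at least 200 UMIs and at least 50 CPM in 1 group. The precision of a level is set by its UMIs, from 1 UMI to 60215. The interval and fold functions were tested on simulated data. Alternatives changed the mitochondrial limit, the gene minimum, doublet removal, the ligand genes in the clustering, the variable genes, the resolution, the components, the neighbors, the seed, the thinning, the UMI minimum and the cell with the most UMIs; those for folds between other groupings were added after the data were seen.

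The genes named are the members, the other CXC ligands, receptors, cutting enzymes, interferon-induced and NF-kappaB genes, the 3 genes most like each member and marker genes; genes that lead a cluster were named after their values were seen. Of the lists, 2 genes were left out and are not reported here. The members and lists were chosen with earlier results of these data known. Tools were Python 3.11.15, NumPy 2.4.6, SciPy 1.17.1, scikit-learn 1.9.0, pandas 2.3.3, matplotlib 3.10.9, igraph 0.11.9 and leidenalg 0.10.2.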

Additional observations from a re-analysis of the deposited data

Results flagged for a closer look

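The 667 cells left out for their mitochondrial share, which no group above includes, had a Cxcl10 level of 1126 CPM (1092 to 1162, 4001 UMIs). That level lies beside 1159 and 994.0 CPM in the Col3a1-high and Col3a1-low tumor cells. The cause was not tested. Cxcl1 in the same cells was at 77.1 CPM, Cxcl9 at 86.1 CPM and Cxcl16 at 33.5 CPM, with Rhox5 at 252.2 CPM and C1qa at 219.9 CPM.

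The 881 cells without a name also belong to no group above. They had 7.19 CPM of Cxcl5 (3.71 to 12.6, 12 UMIs) and 19.8 CPM of Cxcl12 (13.6 to 27.8, 33 UMIs), and the cause was not tested.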

How the results depend on the processing

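Of 431 values under alternatives, 202 lay within the interval of the value given above (for counts of genes, within 1.5 times it), 227 moved out of it and 2 reversed; the cause was not tested. The Cxcl14 ratio of monocytes to macrophages stayed between 0.318 and 0.482, and the Cxcl16 level in macrophages between 685.0 and 703.2 CPM. The Cxcl9 fold between Col3a1-high and Col3a1-low tumor cells (3.28) was 0.774 at a lower resolution and 0.784 with 20 principal components.

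The Cxcl9 level in interferon-response macrophages (1899 CPM) was 1678 with a mitochondrial limit of 10%, 1324 with doublets kept, 1787 with ligand genes kept in the clustering, 1819 with 3000 variable genes, 1971 with 20 principal components and 1696 with 10 nearest neighbors. It was 1804 as a mean over cells, 1796 with thinned cells and 1839 without the cell with the most Cxcl9. The Cxcl9 fold between the interferon-response and the Spp1 states (6.33) was 3.72 with a limit of 10%, 4.65 with doublets kept, 4.47 with ligand genes kept, 9.45 with 3000 variable genes, 3.79 at a lower resolution, 12.5 with 20 principal components, 5.30 with 10 nearest neighbors and 5.91 with thinned cells.

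The Cxcl12 level in fibroblasts (168.8 CPM) was 75.2 at a higher resolution, 93.8 with 10 nearest neighbors, 133.3 with thinned cells and 121.9 without the top cell. The percent of Cxcl10 UMIs in tumor cells (89.4) was 89.8 with a limit of 10%, 89.97 with at least 500 genes per cell, 89.6 with doublets kept and with 3000 variable genes, and 88.6 at a higher resolution and with 10 nearest neighbors.

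The percent of Cxcl16 UMIs in macrophages (82.8) was 84.1 with no mitochondrial limit, 81.7 with at least 500 genes, 80.8 with doublets kept, 84.2 with 3000 variable genes, 85.9 at a lower and 81.2 at a higher resolution, 83.9 with 20 principal components, 81.1 with 10 nearest neighbors and 81.9 with another seed. The percent of interferon-response macrophages with Cxcl9 and Cxcl10 (17.6) was 27.2 when thinned to 2000 UMIs and 59.4 unthinned.

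No group was named interferon-response macrophages with at least 500 genes or with another seed, none monocytes with no mitochondrial limit or at a lower resolution, and none granulocytes with at least 500 genes or at a lower resolution. The Cxcl12 fold of tumor cells against fibroblasts had no value with thinned cells. No paired analysis was possible because there is only 1 library. Groups of 17 to 46 cells rest on few UMIs, the airway and granulocyte cells have medians of 643 and 705.5 UMIs, and 5 tumors in a pool give no spread between animals.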

Other observations

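A cluster of 93 unnamed cells, with a median of 713 UMIs and Scgb1a1, Cxcl13 and Csf3 among its leading genes, had UMIs of all 9 members. Cxcl14 was at 1546 CPM (125 UMIs), Cxcl2 at 1435 CPM (116 UMIs), Cxcl1 at 964.75 CPM (78 UMIs) and Cxcl10 at 828.7 CPM (67 UMIs). Cxcl9 (482.4 CPM), Cxcl12 (383.4 CPM), Cxcl5 (148.4 CPM), Cxcl3 (123.7 CPM) and Cxcl16 (111.3 CPM) had 39, 31, 12, 10 and 9 UMIs there. The cluster held 12 of the 35 Cxcl5 UMIs and 31 of the 149 Cxcl12 UMIs of kept cells.

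A cluster of 263 unnamed myeloid cells, with a median of 2114 UMIs, had a mix of macrophage ligands. Cxcl9 was at 551.2 CPM, Cxcl10 at 461.7 CPM, Cxcl16 at 387.5 CPM and Cxcl2 at 205.6 CPM. The T and NK cells fell into clusters of 72 and 40 cells with Cxcl10 at 168.6 CPM (97 UMIs, 45 in 1 cell) and 414.3 CPM (60 UMIs, 36 in 1 cell). The Col3a1-low tumor cells held clusters of 950 and 285 cells, with Cxcl10 at 992.3 and 1003 CPM and Cxcl9 at 74.3 (72.0 to 76.7) and 99.1 CPM (92.9 to 105.5).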
